A study of Caenorhabditis elegans with 2 samples.

Results

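Distal intergenic regions were the 783 genomic regions of PHA-4 chromatin immunoprecipitation signal whose summits lay outside every annotated gene and away from every protein-coding start. They were selected on signal and position: the nuclear regions of the pooled list were ranked by their deposited signal value, the strongest 4000 of 24890 were kept, and the summit had to lie in no annotated gene of any biotype and not between 1000 bp upstream and 200 bp downstream of a protein-coding transcript 5′ end. Of the other regions among the 4000, 2194 had their summit in that promoter window and 1023 inside a gene. The distal regions were thus 19.6% of the strongest 4000, and the bases that could hold a distal summit, called eligible bases here, were 21.6% of the nuclear genome. The regions are named D1 to D783 in order of pooled signal.

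All material came from 1 group. Whole young adult worms of strain OP37, with the genotype unc-119(ed3) III; wgIs37, were profiled by ChIP-seq in 2 biological replicates of mixed sex, and the labels describe wgIs37 as an insertion for pha-4, with an eGFP tag on the protein. They name eGFP-pha-4 as the target and pha-4 as the antibody, and give a library size range of 150 to 350 with no unit. No untagged worms and no input library were analysed here, so the signal was not set against a control immunoprecipitation, and a whole worm does not tell in which tissue a region was bound. Only peak lists were used, the read depth of each library is unknown, and the scale of the signal value is not stated. Replicate 1 stood apart: of its 29980 nuclear regions 0 reached a q value of 0.05 or less, whereas 7548 of 30000 did in replicate 2. Results are therefore given for the pooled list and for each replicate's own list.

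PHA-4 is the C. elegans member of the FoxA family of forkhead transcription factors, which can engage closed chromatin and open it for other factors. It specifies the pharynx and is also expressed in the intestine, and in adults it is needed for the long life of worms on a restricted diet. Forkhead factors recognise variants of a TGTTTAC-like sequence, while GATA factors such as ELT-2 control intestinal genes. Most known regulatory elements of this compact genome lie just upstream of genes, and distal elements with enhancer activity are fewer and sit in the longer gaps between genes.

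Sequences of 101 bases around the summit are printed for regions on which the results below turn: 4 of the strongest (D1, D3, D4, D10), regions with forkhead or GATA sites near the summit (D12, D14, D15, D19, D13), regions with GAGA repeats (D18, D5) or an E-box (D16, D84), and 3 regions upstream of pha-4 itself (D9, D11, D422). They are from RefSeq's copy of the ce11 assembly, plus strand, and capitals mark matches on either strand to the forkhead consensus, the GATA site, the GAGA repeat and the E-box, whose letters are given with the motif results. D1 and D9 held no match in these 101 bases.
D1 (chrX:16682043-16682143): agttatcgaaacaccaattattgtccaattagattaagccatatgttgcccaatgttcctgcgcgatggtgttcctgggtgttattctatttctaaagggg
D3 (chrX:11094141-11094241): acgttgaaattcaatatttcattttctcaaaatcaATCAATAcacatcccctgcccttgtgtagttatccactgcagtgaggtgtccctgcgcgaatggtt
D4 (chrX:806629-806729): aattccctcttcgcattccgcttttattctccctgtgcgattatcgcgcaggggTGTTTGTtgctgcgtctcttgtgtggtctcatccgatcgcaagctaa
D10 (chrX:1627076-1627176): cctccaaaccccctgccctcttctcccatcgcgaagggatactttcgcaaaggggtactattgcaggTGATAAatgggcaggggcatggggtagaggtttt
D12 (chrX:9465806-9465906): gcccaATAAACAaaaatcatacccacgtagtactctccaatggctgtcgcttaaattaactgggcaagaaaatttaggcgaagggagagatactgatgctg
D14 (chrX:13250243-13250343): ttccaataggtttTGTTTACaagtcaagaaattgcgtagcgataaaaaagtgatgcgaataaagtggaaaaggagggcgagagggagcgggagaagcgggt
D15 (chrIII:1279318-1279418): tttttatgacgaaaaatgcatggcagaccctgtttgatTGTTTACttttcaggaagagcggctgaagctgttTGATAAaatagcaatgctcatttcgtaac
D19 (chrIV:9442377-9442477): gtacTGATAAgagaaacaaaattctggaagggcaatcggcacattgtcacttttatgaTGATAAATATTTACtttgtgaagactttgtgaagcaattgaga
D13 (chrIV:13314304-13314404): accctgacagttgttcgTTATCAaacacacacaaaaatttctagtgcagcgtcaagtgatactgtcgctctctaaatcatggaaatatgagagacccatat
D18 (chrII:2974022-2974122): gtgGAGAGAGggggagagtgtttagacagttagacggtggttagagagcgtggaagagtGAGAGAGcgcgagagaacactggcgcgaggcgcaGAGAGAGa
D5 (chrV:14200223-14200323): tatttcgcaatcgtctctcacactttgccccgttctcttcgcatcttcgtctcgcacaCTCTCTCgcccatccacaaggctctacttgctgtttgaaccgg
D16 (chrV:6240884-6240984): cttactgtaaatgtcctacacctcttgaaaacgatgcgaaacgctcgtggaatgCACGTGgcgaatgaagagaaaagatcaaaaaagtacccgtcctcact
D84 (chrX:13358686-13358786): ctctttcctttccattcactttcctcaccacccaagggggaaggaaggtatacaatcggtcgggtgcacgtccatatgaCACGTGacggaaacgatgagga
D9 (chrV:20749315-20749415): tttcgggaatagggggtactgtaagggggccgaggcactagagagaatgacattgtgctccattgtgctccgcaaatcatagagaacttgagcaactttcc
D11 (chrV:20748083-20748183): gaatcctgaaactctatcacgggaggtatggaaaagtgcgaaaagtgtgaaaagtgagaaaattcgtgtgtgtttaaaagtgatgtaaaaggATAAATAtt
D422 (chrV:20751216-20751316): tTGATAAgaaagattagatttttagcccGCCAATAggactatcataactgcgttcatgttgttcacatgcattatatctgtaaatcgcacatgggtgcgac

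The strongest distal regions were among the strongest anywhere in the pooled list and lay mostly in large gaps. D1, on the X chromosome at 16681923 to 16682262 between F22H10.2 and F22H10.11, ranked 12 of all nuclear regions, with a signal of 116.1 in the pooled list, 100.7 in replicate 2 and 12.1 in replicate 1. D2, on chromosome II at 8787407 to 8787746 between sgn-1 and F07H5.13, had 114.0 in the pooled list, 98.6 in replicate 2 and 15.2 in replicate 1. D3, on X at 11094021 to 11094360 between W04G3.11 and W02H3.3, had 111.6 in the pooled list, 95.4 in replicate 2 and 21.6 in replicate 1, where it ranked 4. These 3 stood above the rest, and D3 was among the leading regions of both replicates. D4, on X between gtr-1 and F25E2.2, followed at 94.9, with 88.9 in replicate 2 and 12.2 in replicate 1.

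Genes of several kinds flanked the other leading regions. D5 (89.4 pooled, 74.7 in replicate 2, 10.3 in replicate 1) lay 2573 bp past atfs-1, a regulator of the mitochondrial stress response. D6 (89.1 pooled, 102.7 in replicate 2) lay between dot-1.4 and F55G7.5 and had no region in replicate 1. D7 (88.0 pooled, 90.3 in replicate 2, 6.32 in replicate 1) lay beside adm-2, which encodes a membrane metalloprotease. Further down this order were D13, 1290 bp upstream of fat-1, an omega-3 fatty acid desaturase (75.9), and D14, 1671 bp upstream of the nuclear hormone receptor gene nhr-32 (74.2). D12, 6614 bp upstream of the Ras GTPase-activating protein gene gap-2, had a signal of 75.9. D16, in the gap upstream of the DM-domain gene dmd-7, had 72.7, D18, upstream of the nuclear receptor gene nhr-88, had 71.9, and D19, 1320 bp upstream of the isocitrate dehydrogenase gene idh-1 on the minus strand, had 68.7. D8 (signal 85.98), 43 bp upstream of the spliced-leader RNA gene sls-2.2, had only 75.9% of the 36-base words around its summit once in the genome. The rest of the leading 20 lay between H11E01.2 and fbxb-58 (D10, 80.9), fbxa-30 and fbxa-37 (D15, 72.9), casc-3 and W08E3.4 (D17, 72.6) and glb-6 and klc-2 (D20, 67.6), with D9 and D11 upstream of pha-4. D17 was 89 bp upstream of the ncRNA gene W08E3.5, and D20 was 30 bp upstream of the ncRNA gene C18C4.17. The nearest pseudogene start lay 193 bp from D2 and 259 bp from D15, each upstream of it.

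Of the leading 20, 8 were on X, 12 lay in gaps between genes of the same direction, 14 held a forkhead consensus within 100 bp of the summit, and 14 overlapped a region of replicate 1. Over all 783, the signal ran from 22.3 to 116.1 with a median of 30.5 (quartiles 25.6 and 39.1). The last members had 22.3284, 22.3219 and 22.3218, and the next distal summits, left out by rank, had 22.3157, 22.2953 and 22.2935. At the other edge of the rule, 40 members had their summit within 100 bp beyond the upstream limit of the promoter window, and 45 promoter-window regions in no gene lay within 100 bp inside it. The optimal list, which holds the regions that passed the authors' test of reproducibility, contained 166 of the 783 (21.2%), where it contained 21% of all 4000. Because that list is the top of the same ranking, this share describes signal only.

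Distal regions kept an even share down the ranking, while the share inside genes grew. Among the first 500 ranks, 100 summits were distal, 319 in a promoter window and 81 inside a gene. Among ranks 3501 to 4000 the counts were 97, 254 and 149. The distal share stayed between 18.2% and 20.8% in the 8 blocks of 500 ranks.

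**Figure D1:**
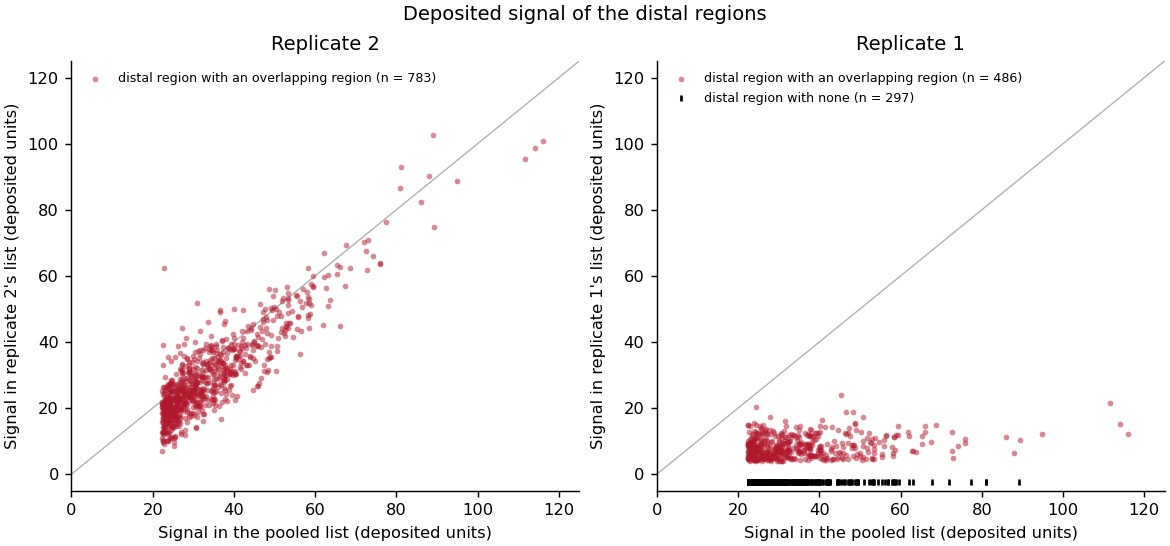
Each point is 1 of the 783 distal regions, with its signal in the pooled list on the horizontal axis and that of the strongest overlapping region in replicate 2 (left) or replicate 1 (right) on the vertical axis, both in deposited units; the grey line marks equal values and black ticks mark regions with none. All 783 had a region in replicate 2, and 297 had none in replicate 1, where no value passed 23.8.

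Distal regions, like the strongest 4000 as a whole, were found more often in the list of replicate 2 than in that of replicate 1. The list of replicate 2 overlapped all 783 by at least 1 bp, 95.8% of them with a q value of at most 0.05, and 82.9% were among its strongest 4000. Its signals there ran from 7.16 to 102.7, with a median of 26.7. Replicate 1 overlapped 486 (62.1%), 29.1% among its strongest 4000, with signals from 4.05 to 23.8 and a median of 7.78. The shares over all 4000 regions were near these. Replicate 2 overlapped 99.8% of the 4000, 95.85% with a q value of at most 0.05 and 81.2% among its strongest 4000. Replicate 1 overlapped 63.3% of the 4000, 27.5% among its strongest 4000. Both replicates' reads are in the pool, so these overlaps are a description. In the plot of pooled against replicate signals, the points of replicate 2 lie along the line of equal values and those of replicate 1 far under it.

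When the same rule was applied to each replicate alone, replicate 1 gave 788 distal regions and replicate 2 gave 814. Only 156 of the 788 (19.8%) overlapped 1 of the 814, and 157 of the 814 (19.3%) overlapped 1 of the 788. The pooled set shared 638 of its 783 regions with replicate 2's set and 209 with replicate 1's. The strongest replicate 1 value at any member, 23.8, was at D128 near the sex-determination gene xol-1, where the pooled signal was 45.3 and replicate 2 had 34.4. D128 also had part of its sequence repeated in the genome, 80.7% of its 36-base words being unique, whereas 754 of the 783 had every such word once.

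The intergenic label held under a further annotation. With RefSeq's annotation of the same assembly, 767 of the 783 were still distal, 15 fell in a promoter window and 1 inside a gene. Summits lay a median of 2287 bp from the nearest protein-coding 5′ end, and the gaps that held them had a median length of 5374 bp, where the median of all 17073 gaps was 908 bp. The rule favours long gaps, so that difference was fixed by it. Non-coding genes were close to some: 113 members (14.4%) lay within 500 bp upstream of a non-coding gene or pseudogene.

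Forkhead, GATA, GAGA and E-box sequences were all concentrated at the distal summits, as at promoter-window summits and summits inside genes. A set of 10 motifs was searched, on either strand, up to 100 bp from the summit and in an equal window centred 500 bp towards lower coordinates, so that each region served as its own background. Base composition differed between these windows, with a median of 38.8% G and C at summits and 33.3% in flanks. All adjusted p-values in this comparison are from exact McNemar tests with Benjamini-Hochberg adjustment over the 10 motifs, two-sided. They compare regions of 1 pooled list, and neighbouring regions of a gap are not independent. The intervals cover counting error only.

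The forkhead consensus (T, A or G, TT, G or T, A or G, C or T) was found at 501 distal summits (64.0%, 95% interval 60.5 to 67.4), against 49.6% of flanks. It was present at the summit alone in 241 regions and in the flank alone in 128 (ratio 1.88, adjusted exact p = 1.41e-08). The stricter forkhead core, which requires T at the fifth base and is contained in the consensus, was in 48.5% of summit windows against 35.0% of flank windows (adjusted exact p = 3.48e-07). Among the consensus words, TGTTTGT was the most frequent, in 10.6% of summit windows against 5.87% of flank windows. A further pair had the highest ratios of summit to flank share: TGTTTAC was at 9.32% of summits and 2.43% of flanks, and TGTTGAC at 7.02% of summits and 1.79% of flanks. The A and T rich word TATTTAT, also a consensus match, was found in 9.20% of summit windows and 9.32% of flank windows. In D14 and D15 the forkhead match printed above is TGTTTAC in each case.

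The site of GATA factors, TGATAA, was at 282 distal summits (36%, 95% interval 32.6 to 39.5), against 18.6% of flanks, with 227 regions holding it only at the summit and 91 only in the flank (ratio 2.49, adjusted exact p = 7.35e-14). GAGAGAG, the repeat bound by GAGA factors in Drosophila, had the highest ratio of summit-only to flank-only regions of the 10 motifs, with 17.5% of summits against 3.45% of flanks (ratio 6.24 by the same test, adjusted exact p = 1.26e-19). Basic helix-loop-helix factors bind the E-box CACGTG, which 11.4% of summits held, against 4.47% of flanks (81 regions only at the summit and 27 only in the flank, adjusted exact p = 3.67e-07). The core of the SKN-1 site, A or G followed by TCAT, was in 61.4% of summit windows against 53.4% of flank windows (adjusted exact p = 0.00221); SKN-1 is the Nrf-type regulator of detoxification. TAATTA, a homeodomain site, went the other way, with 3.96% of summits against 11% of flanks (adjusted exact p = 3.67e-07), as did the heat shock element (GAA and TTC with any 2 bases between) with 9.71% of summits against 14.0% of flanks (adjusted exact p = 0.0122). Differences at AGGTCA, the nuclear receptor site, and at the E2F site (TTT, C or G, C or G, CGC) were not called (adjusted exact p = 0.921 each). Against their own flanks, promoter-window summits had ratios of 1.65 for the forkhead consensus, 1.63 for TGATAA, 4.79 for GAGAGAG and 2.23 for the E-box. Summits inside genes had 1.52, 2.15, 2.97 and 2.35 in that order, and all of these were called by the same test.

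Some of the distal differences were not called in the regions whose flanks were alike in base composition. In 292 distal regions the summit window and flank differed by at most 5 percentage points of G and C. Of the 10 motifs, 4 were called there, against 8 of 10 in all distal regions. Among the 292, 64.7% of summits held the forkhead consensus, against 47.6% of their flanks (adjusted exact p = 0.000108). TGATAA was at 44.5% and 19.5% (adjusted exact p = 2.88e-09), and GAGAGAG at 10.3% and 4.45% (adjusted exact p = 0.0150). The E-box, at 11.3% of summits and 6.16% of flanks, no longer passed the threshold (adjusted exact p = 0.0714), and neither did the SKN-1 core, the homeodomain site or the heat shock element. The SKN-1 core was at 60.6% and 53.4%, near its 61.4% and 53.4% in all distal regions. Fewer regions also make a call harder, and this was not separated from base composition.

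The replicates differed here. In replicate 2's own 814 distal regions, 64.7% of summits held the forkhead consensus against 47.7% of flanks (adjusted exact p = 1.13e-11), and TGATAA was at 37.8% and 20.3% (adjusted exact p = 5.19e-14). In replicate 1's own 788, 45.8% of summits held the forkhead consensus against 50.1% of flanks (adjusted exact p = 0.243). There TGATAA was at 19% and 20.2% (adjusted exact p = 0.754), and GAGAGAG, the only motif called, at 8.63% and 3.55% (adjusted exact p = 0.000450). Among the pooled members, those with an overlapping replicate 1 region held the forkhead consensus in 59.7% of 486 cases, and those without in 71.0% of 297.

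**Figure D2:**
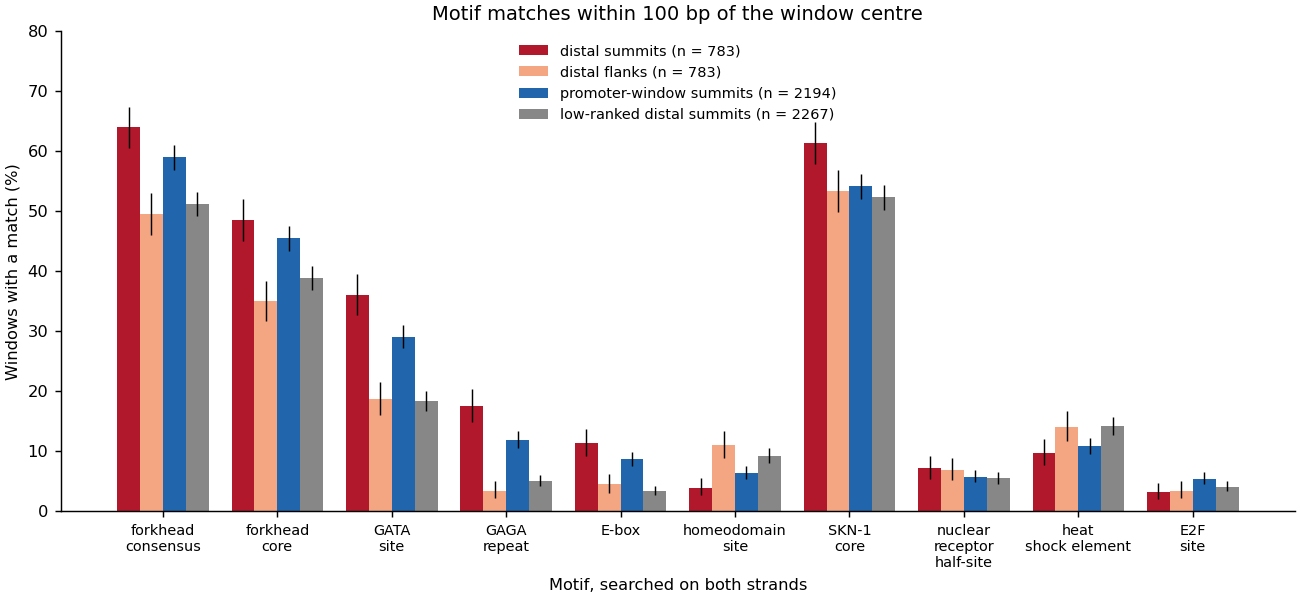
Bars give the percentage of windows with at least 1 match to each of 10 motifs for 783 distal summits, their flanks, 2194 promoter-window summits and 2267 low-ranked distal summits; error bars are exact 95% binomial intervals. At distal summits TGATAA reached 36%, against 18.6% in flanks, 29.1% at promoter-window summits and 18.4% at low-ranked distal summits.

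**Figure D3:**
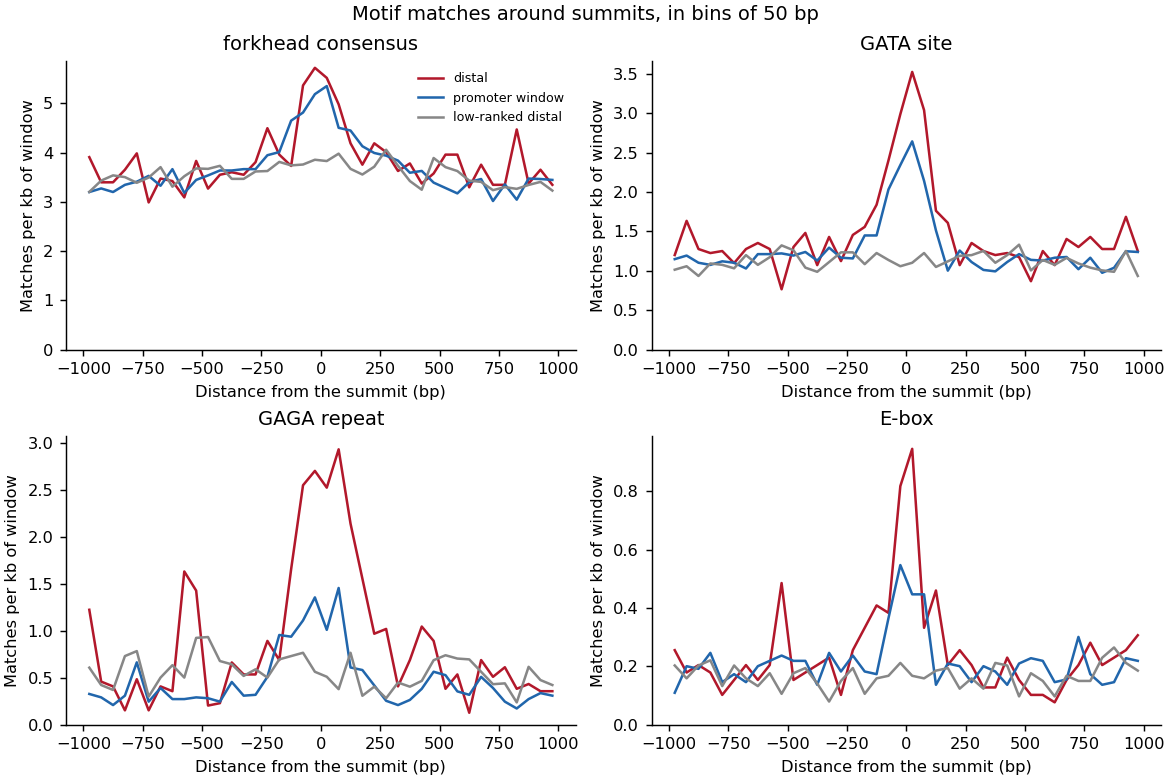
Lines give matches per kb of window in bins of 50 bp, overlapping matches counted each, out to 1000 bp on both sides of the summit, for distal, promoter-window and low-ranked distal regions. All 4 motifs rise at distal and promoter-window summits. At distal summits the GATA site reaches 3.26 matches per kb within 50 bp against 1.26 beyond 500 bp.

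Matches sat close to the summit. Within 50 bp of distal summits there were 3.26 TGATAA matches per kb, against 1.26 per kb more than 500 bp away, a ratio of 2.59. The corresponding ratios were 4.71 for GAGAGAG, 4.37 for the E-box and 1.57 for the forkhead consensus. Promoter-window summits had ratios of 2.19 for TGATAA, 3.52 for GAGAGAG, 2.60 for the E-box and 1.58 for the forkhead consensus. Where a region held the motif, the nearest match was a median of 34 bp from the summit for the forkhead consensus, 35 bp for TGATAA, 36 bp for GAGAGAG and 32 bp for the E-box. The search stopped at 100 bp and no such distance was computed in flanks, so these medians alone do not show closeness. In the profile of motif matches around summits, low-ranked distal regions stayed flat for each of the 4.

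Forkhead and GATA sites occurred together at 182 distal summits (23.2%), against 10.6% of flanks. A further 319 held the forkhead consensus without TGATAA, and 100 held TGATAA without the forkhead consensus. D15 and D19 show the first kind, and in D19 the sites share bases. At least 2 forkhead matches were in 27.7% of summits and 14.4% of flanks, while 15.3% of summits and 38.4% of flanks held none of the forkhead, GATA, GAGA and E-box sequences. These combined shares were not tested. Forkhead and GATA sites were each more frequent at summits (64.0% and 36%) than in flanks (49.6% and 18.6%). Sites placed independently would also give a higher joint share at summits, so that share does not show that they go together.

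Motif shares were also split by signal. The forkhead consensus was in 63.3%, 67.3%, 65.1% and 60.2% of the members in groups of 195 or 196 from strongest to weakest, and TGATAA in 37.8%, 37.2%, 36.4% and 32.7%. GAGAGAG was in 19.9% of the strongest group and 11.7% of the weakest, and the E-box in 14.3% and 8.67%. By chromosome, GAGAGAG was least frequent on X (9.9% of 203 members) and most frequent on IV (26.1%). TGATAA was likewise lowest on X (29.6%) and highest on IV (41.7%). No test was made of these splits.

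Distal summits differed in sequence from promoter-window summits of the same ranking, although base composition was alike, with medians of 38.8% and 38.3% G and C. Fisher's exact test, two-sided and with Benjamini-Hochberg adjustment over the 10 motifs, was used here and for the low-ranked regions. TGATAA was at 36% of 783 distal and 29.1% of 2194 promoter-window summits (odds ratio 1.37, adjusted exact p = 0.00142). GAGAGAG was at 17.5% and 11.9% (odds ratio 1.57, adjusted exact p = 0.00113), the SKN-1 core at 61.4% and 54.1% (odds ratio 1.35, adjusted exact p = 0.00142), the forkhead consensus at 64.0% and 59.0% (odds ratio 1.24, adjusted exact p = 0.0255) and the E-box at 11.4% and 8.66% (odds ratio 1.35, adjusted exact p = 0.0456). Lower at distal summits were the homeodomain site (3.96% against 6.38%, odds ratio 0.605, adjusted exact p = 0.0242) and the E2F site (3.19% against 5.47%, odds ratio 0.570, adjusted exact p = 0.0242), which belongs to regulators of cell-cycle genes. The forkhead core, at 48.5% and 45.5%, was not called (adjusted exact p = 0.180), nor were AGGTCA or the heat shock element. Summits inside genes were not tested against distal ones. Of these, 61.2% held the SKN-1 core, close to the distal share. They held TGATAA at 30.6%, GAGAGAG at 11.3%, the forkhead consensus at 56.4% and the E-box at 8.90%.

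Of the 7 differences, that of TGATAA was called in each alternative tried except replicate 1 alone. It was called in the optimal list, at 39.8% of 166 distal and 21.0% of promoter-window summits (odds ratio 2.49, adjusted exact p = 3.34e-05), and with a promoter window of 2000 bp upstream to 500 bp downstream, which left 490 distal regions (38.0% against 29.4%, adjusted exact p = 0.00198) and where it was the only motif called. Replicate 2 alone gave 37.8% and 30.2% (adjusted exact p = 0.000267), and replicate 1 alone 19% and 20.9% (adjusted exact p = 0.757). The forkhead consensus difference was not called in the optimal list (63.9% against 56.7%, adjusted exact p = 0.310), with the wider promoter window (adjusted exact p = 0.121) or in replicate 1 (45.8% against 51.9%, adjusted exact p = 0.0596). It was also not called with 50 bp on each side of the summit (41.1% against 37.6%, adjusted exact p = 0.159). With 150 bp on each side the shares were nearly equal, at 74.3% and 74.1% (odds ratio 1.01, adjusted exact p = 0.924).

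Low-ranked distal regions, from the lower 50% of the pooled list by the same position rule, gave a further comparison. They numbered 2267 and had a median of 33.8% G and C, against 38.8% at the 783. The forkhead consensus was at 64.0% of distal summits and 51.2% of low-ranked ones (odds ratio 1.69, adjusted exact p = 1.30e-09), TGATAA at 36% and 18.4% (odds ratio 2.50, adjusted exact p = 4.49e-22) and the E-box at 11.4% and 3.40% (odds ratio 3.65, adjusted exact p = 1.03e-14). GAGAGAG was at 17.5% and 5.03% (odds ratio 4.01, adjusted exact p = 1.62e-23). In all, 8 of 10 motifs were called, 6 higher and 2 lower at the 783. The low-ranked summits did not differ from their own flanks by the McNemar test for any of the 10 motifs (0 called, 0 with an unadjusted p under 0.05), with the forkhead consensus at 51.2% and 49.7%.

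All 6-base words were then tested without a chosen motif. Against flanks, 15.1% of the words were higher and 8.12% lower at distal summits (exact McNemar test, adjusted over all words). The leading higher words were AGAGAG (29.6% of summits, 7.92% of flanks), GAGAGA (33.8% and 10.7%), CTTATC (24.7% and 6.77%), AGAGAA (40.0% and 18.01%) and CAGAGA (25.03% and 8.05%). CTTATC holds the GATA core on its reverse strand, so purine-rich repeats and GATA words led. The leading lower words were rich in A and T: AAAATT (43.3% and 70.1%), AAATTT (24.9% and 48.4%), AAATTA (23.1% and 46.9%), AATTTA (17.8% and 40.1%) and TTAAAA (28.7% and 52.7%). In the 292 regions with flanks of matched G and C content, 20 words were called instead of 483, and CTTATC remained (28.1% and 8.56%, adjusted exact p = 3.12e-06). The smaller number of regions also makes a call harder.

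Against promoter-window summits, 2.07% of the words were higher and 4.33% lower at distal summits (Fisher's exact test, adjusted over all words). CTGTCA led, at 13.9% of distal and 6.97% of promoter-window summits (odds ratio 2.16, adjusted exact p = 7.07e-06); its reverse strand reads TGACAG, the core recognised by Meis-type homeodomain factors such as UNC-62. It was at 6.51% of distal flanks and 8.20% of low-ranked distal summits. The next were ACACAT (20.8% and 14.0%), ACTCCC (6.77% and 3.28%), CCTGTC (8.05% and 4.24%), which overlaps CTGTCA, and GATAAC (18.6% and 12.8%). Lower at distal summits were AAATCG (13.4% and 24.6%), ACGCGC (4.98% and 12.3%), AAAATC (24.8% and 36.4%), GCGCAC (4.34% and 10.9%) and AATTAA (14.4% and 23.2%). In replicate 2 alone CTGTCA was at 13.8% and 7.90% (adjusted exact p = 0.000253), and in replicate 1 alone at 8.12% and 7.12% (adjusted exact p = 0.802).

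Distal regions were spread unevenly over the eligible bases. Exact binomial tests set each share against the share of eligible bases, with Benjamini-Hochberg adjustment within each family. Chromosome III held the largest excess (15.96% of regions, 95% interval 13.5 to 18.7, against 11.5% of eligible bases, ratio 1.39, adjusted exact p = 0.000495). Chromosome IV held fewer (14.7% against 20.03%, ratio 0.733, adjusted exact p = 0.000495) and V held 118 (15.1% against 18.6%, adjusted exact p = 0.0202). X held the most, 203 (25.9% against 24.0%), which was not called (adjusted exact p = 0.314), and neither were I and II. Chromosome IV carries dense clusters of piRNA genes, each a short transcription unit with its own upstream sequence. Without the bases and summits within 500 bp upstream of a piRNA gene, IV had 13.1% of regions and 14.8% of bases (adjusted exact p = 0.444), while III and V were still called. This removal was chosen after seeing the data. All 14 regions it took out were on IV, in sequence that held few regions for its length. The shift of IV towards its share of bases was thus built in, and the reason for its low share was not tested. The share of V was not called in replicate 2 alone (adjusted exact p = 0.0854).

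Counts differed by the orientation of the neighbouring genes. In gaps between 2 gene ends (convergent), where no protein-coding gene starts, there were 68 distal regions (8.68% against 15.4% of eligible bases, ratio 0.566, adjusted exact p = 1.26e-07). Gaps with 1 gene start (tandem) held 461 (58.9% against 53.5%, ratio 1.10, adjusted exact p = 0.00390), and gaps with 2 starts (divergent) held 254 (32.4% against 31.2%, adjusted exact p = 0.440). The low convergent share was called in each replicate alone, at 9.58% in replicate 2 and 9.01% in replicate 1. Even so, D1, D3 and D4, all within the leading 4, lay in convergent gaps.

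Within the distal class, regions leaned towards starts. The band from 1000 to 2000 bp upstream of a protein-coding 5′ end held 292 (37.3% against 26.5% of eligible bases, ratio 1.41, adjusted exact p = 9.71e-11). The 448 summits over 2000 bp from every 5′ end were 57.2%, against 64.9% of bases (adjusted exact p = 1.44e-05). The 500 bp past gene ends held 118, or 15.1% against 15.3% (adjusted exact p = 0.921). Both replicates alone gave the first 2 calls. Past gene ends the share was called in replicate 2 alone (18.4% against 15.3%, ratio 1.21, adjusted exact p = 0.0147) and with 1 region per gap (19.6% against 15.3%, ratio 1.28, adjusted exact p = 0.00520), and was 12.8% in replicate 1 alone (adjusted exact p = 0.0596). The middle 50% of each chromosome's length held 437 regions (55.8% against 48.0%, ratio 1.16, adjusted exact p = 1.45e-05), and this too was called in each replicate. In the optimal list alone, with 166 distal regions, none of the chromosome, gap and distance differences was called, and 1 of these 12 had an unadjusted p under 0.05.

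**Figure D4:**
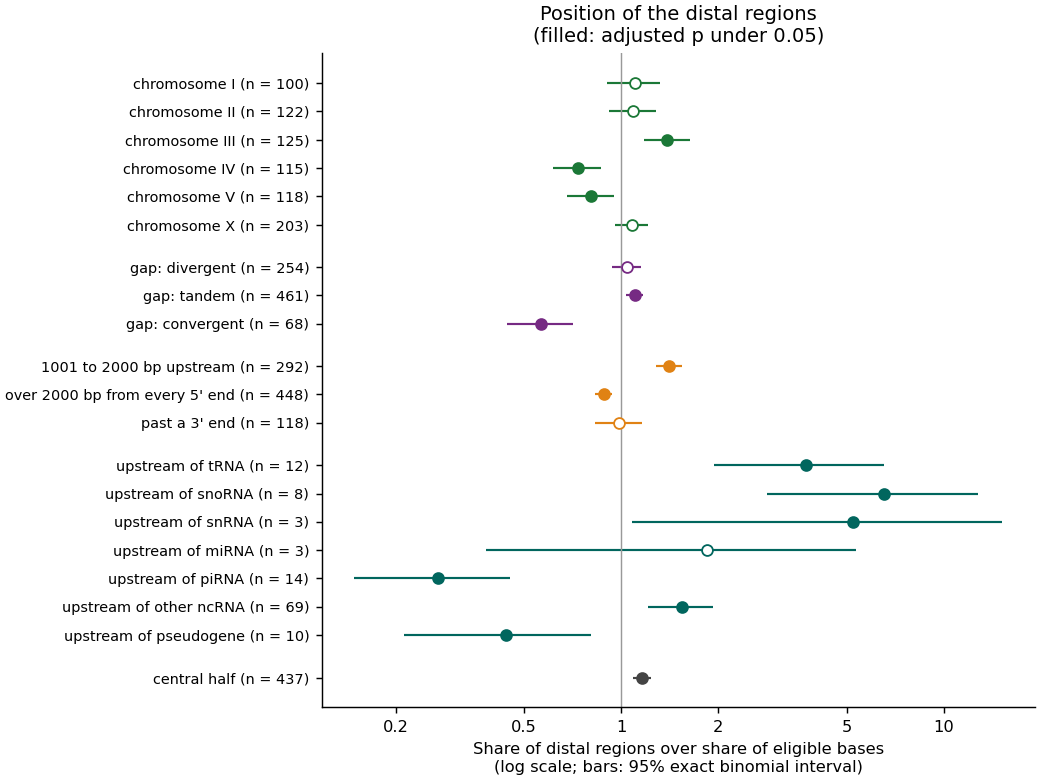
Points give the share of the 783 distal regions in each position class divided by that class's share of eligible bases, on a log scale, with exact 95% binomial intervals; filled points had an adjusted p under 0.05. Convergent gaps (0.566) and piRNA upstream sequence (0.271) lie below 1, and snoRNA (6.53) and tRNA (3.75) upstream sequence above it.

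Few distal regions lay just upstream of small RNA genes, and their shares differed from those of eligible bases in both directions. The rule left out protein-coding starts but not those of non-coding genes. The 500 bp upstream of tRNA genes held 12 regions (1.53%, 95% interval 0.794 to 2.66, against 0.409% of eligible bases, ratio 3.75, adjusted exact p = 0.000287). The same distance upstream of snoRNA genes, whose products guide RNA modification, held 8 (1.02% against 0.157%, ratio 6.53, adjusted exact p = 0.000146), and that of snRNA genes held 3 (0.383% against 0.0734%, adjusted exact p = 0.0241). Upstream of other ncRNA genes there were 69 (8.81% against 5.72%, ratio 1.54, adjusted exact p = 0.000866). By contrast, piRNA genes had 14 (1.79% against 6.59%, ratio 0.271, adjusted exact p = 2.54e-09) and pseudogenes 10 (1.28% against 2.90%, adjusted exact p = 0.00542), and the 3 upstream of microRNA genes did not differ beyond the threshold (adjusted exact p = 0.224). All 14 at piRNA genes were on chromosome IV, so the low piRNA share and the low share of IV overlap and are not separate results.

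Several of these lay very near the RNA start. D75, with 52.2 in the pooled list, 53.4 in replicate 2 and no region in replicate 1, was 40 and 77 bp upstream of a pair of tRNA genes on X; 82.5% of its 36-base words were unique. Among the tRNA neighbours, D391 was 17 bp and D584 19 bp from the nearest, with 68.7% and 79.5% of words unique. For snoRNA, D189 (39.6) was 366 bp upstream of W01H2.11, D219 (37.7) 108 bp upstream of F12F6.11, D431 (29.3) 84 bp upstream of F30H5.4 and D698 (23.5) 5 bp upstream of C18A3.12. Both D8 (signal 85.98) and D407 (30.2) lay upstream of genes for the SL2 spliced leader, sls-2.2 and sls-2.9, and both had repeated sequence, with 75.9% and 81.9% of 36-base words unique. Leaving out the 18 members under 90% unique left 4 of 7 classes called, and the tRNA ratio was then 1.6 (adjusted exact p = 0.291) and the snRNA ratio 1.78 (adjusted exact p = 0.430). That step removed regions but no repeated eligible bases, so part of the fall in these ratios was built in. With all members the tRNA, snoRNA and other ncRNA calls stood in each replicate alone, while that of snRNA genes, on 3 regions, was not called in either.

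Most distal regions were alone in their gap, and some gaps held many. The 783 lay in 572 gaps between protein-coding genes; 440 gaps held 1, and 44 held 3 or more, together 167 members. Of these 44 gaps, 22 were tandem, 19 divergent and 3 convergent. The smallest distance between neighbouring summits was 199 bp, and 19 neighbouring pairs lay closer than the width of a region, 340 bp, and some share 1 replicate region, as D644 and D783 in the mxl-3 gap do.

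**Figure D5:**
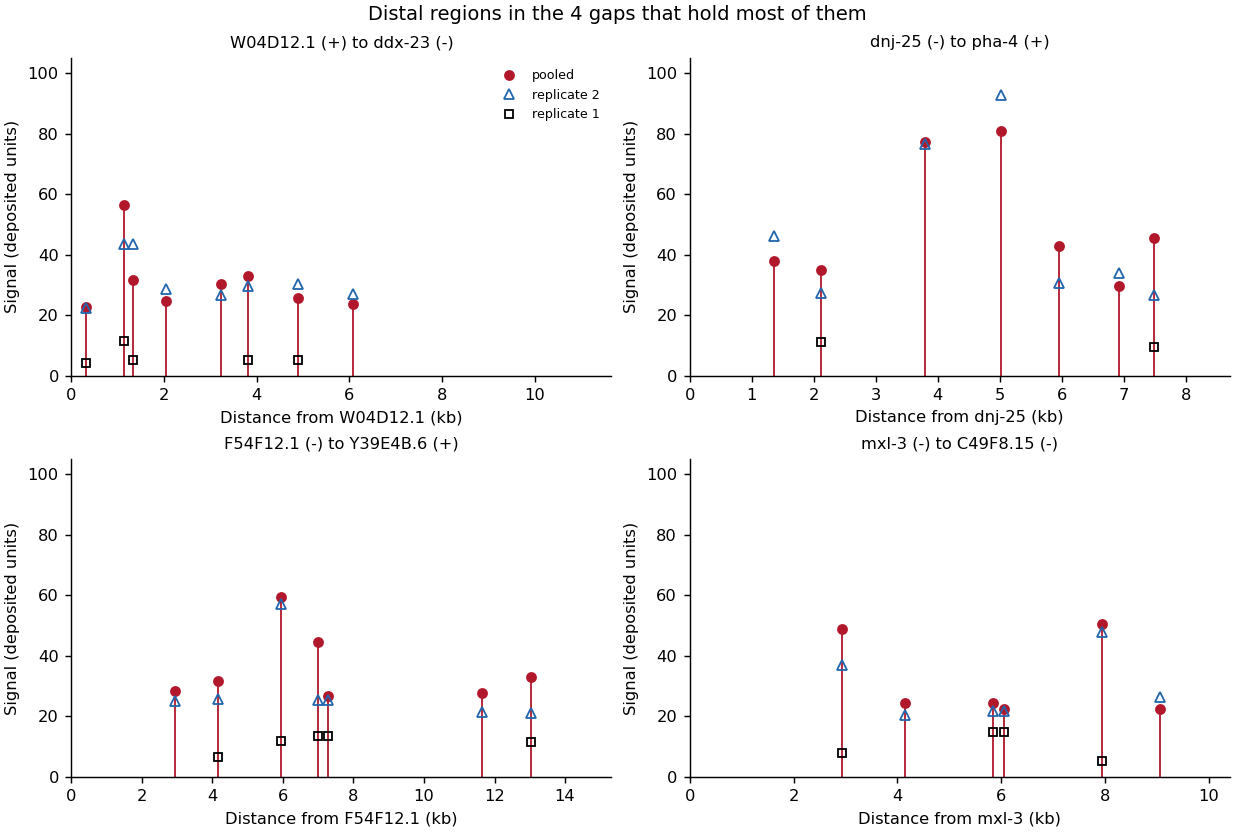
Each panel is 1 of the 4 gaps with the most distal regions, with distance from the left gene in kb on the horizontal axis and deposited signal on the vertical axis for the pooled list (filled circles on stems), replicate 2 (triangles) and replicate 1 (squares). Upstream of pha-4 a pair of regions reached 81.0 and 77.4 in the pooled list with no replicate 1 region.

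The gap from W04D12.1 to ddx-23, a splicing helicase gene, held 8 regions on chromosome III, from 22.8 to 56.5, although the genes converge there; 4 held a forkhead consensus and 5 had a replicate 1 region. F54F12.1 and Y39E4B.6 enclosed 7 on the same chromosome, from 26.6 to 59.5, with 5 in replicate 1. The mxl-3 gap on X held 6, from 22.3 to 50.6. The gene mxl-3 encodes a Max-like basic helix-loop-helix factor, a class that binds CACGTG, and 4 of these 6 held an E-box within 100 bp, among them D84 printed above. Over all members that share was 11.4%. This gap was singled out after its motifs were seen.

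Other crowded gaps bordered signalling, metabolic and regulatory genes. The gap between nlr-1, a neurexin-like receptor, and F35G2.1 held 5 regions up to 58.3, and that between F53H2.3 and fce-2 held 5 up to 42.2. Gaps with 4 members included those beside aakg-3, a gamma subunit of AMP-activated kinase (up to 58.4), lpin-1, the lipin phosphatase of fat synthesis (58.4), tax-6, the calcineurin catalytic subunit (43.3), crtc-1, a coactivator of CREB that links AMPK to lifespan (40.6), hsp-16.1, a small heat shock protein (40.5), nhr-45 (40.0) and nsy-1, a kinase of the p38 pathway (37.8). With 3 members there were gaps beside nhr-88 (71.9), nhr-28 (58.6), nhr-105 (56.9), nhr-1 (53.6), sma-9, a Schnurri-type factor of the TGF-beta pathway (53.3), bec-1, the beclin of autophagy (37.9), mdl-1, a Mad-like factor (36.8), and din-1, a corepressor of the receptor DAF-12 (30.8).

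The remaining crowded gaps are given by their genes and strongest signal. Those with 4 members were F26A3.4 to F26A3.5 (62.8), got-2.2 to W05H9.4 (55.6), Y69E1A.8 to Y43E12A.2 (52.5), irld-18 to dmd-6 (50.7), T14G8.3 to bcat-1 (41.4), nhr-274 to rps-28 (40.7), mstr-1 to nars-1 (40.2) and gldi-3 to mtrr-1 (40.2). Those with 3 and a signal above 40 were ret-1 to npr-13 (67.4), W08G11.1 to pptr-1 (56.3), asp-13 to ZC190.4 (53.4), ztf-14 to M163.1 (49.1), C30G12.4 to C30G12.2 (47.5), T19H5.7 to T19H5.4 (45.8), rei-2 to pigx-1 (45.6) and plg-1 to K01F9.2 (42.9). The others with 3 were W01H2.2 to rab-37 (39.6), W09D10.4 to tat-3 (36.5), gln-3 to Y105C5B.1413 (35.6), F34H10.5 to F34H10.4 (35.3), W06H8.6 to K08B12.3 (34.1), saeg-1 to F32D8.1 (30.1) and shc-1 to hmbx-1 (28.1).

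The 7 regions upstream of pha-4 stood in the divergent gap to dnj-25, 8705 bp long. D9, on chromosome V at 20749195 to 20749534 and 3687 bp upstream, had 81.0 in the pooled list, 92.9 in replicate 2 and no region in replicate 1. D11, 4919 bp upstream, had 77.4 and 76.5, again with none in replicate 1. These were far above the other 5, which ran from 29.8 to 45.6 in the pooled list and from 26.6 to 46.3 in replicate 2. Only D125 (1226 bp upstream, 9.40 in replicate 1) and D280 (6593 bp upstream, 11.2) overlapped a replicate 1 region. Forkhead matches were within 100 bp of 2 of the 7, D11 and D422, and the nearer D9 summit held a GAGA repeat only. Over all members, 64.0% of summits and 49.6% of flanks held a forkhead match. Reads from any pha-4 sequence in the transgene and from the native gene cannot be told apart. Leaving out the regions within 40000 bp of pha-4 changed no motif, chromosome or gap call.

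Genes next to distal regions were counted for lists of regulators and of tissues known for PHA-4. A gene was next to a region when it was the closest protein-coding gene on either side of the gap, which held for 1099 of 19973 genes (5.5%). Long gaps make this more likely: the gaps adjoining a gene came to a median of 2212 bp over all genes, and the part of gap length in the counts below was not tested. Nuclear hormone receptor genes, a family much enlarged in this worm, were next to a region in 34 of 274 cases (12.4%, median adjoining gaps 2860 bp). The strongest were at nhr-32 (74.2), nhr-88 (71.9), nhr-20 (59.4) and nhr-28 (58.6). Other transcription factors had 19 of 120 (15.8%, 5022 bp), led by dmd-7, sma-9, the sexual regulator mab-3 (52.7) and dmd-6 (50.7). Homeobox genes, with adjoining gaps of 4746 bp, had 6 of 96 (6.25%), among them dve-1 (41.8), a factor of the mitochondrial stress response, ceh-24, mec-3 and ceh-36.

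Forkhead genes, whose adjoining gaps of 6217.5 bp were the longest of the gene lists counted this way, had 3 of 15 (20%): pha-4, fkh-9 (2 regions, 47.1) and daf-16, the FoxO factor of insulin signalling (2 regions, 24.8). Insulin and dietary longevity genes had 8 of 34 (23.5%, adjoining gaps 3476 bp), with aakg-3 (58.4), aakg-1 (48.7), crtc-1 (40.6) and akt-1 (38.6) at the head. Autophagy genes had 6 of 28 (21.4%, 2439 bp), with epg-9 (44.6), atg-2 (40.1), bec-1 (37.9) and the cargo receptor gene sqst-1 (32.1). Pharynx genes had 2 of 20 (10%, adjoining gaps 2507.5 bp), pha-4 and lin-59 (47.0). Intestine genes had 4 of 39 (10.3%, adjoining gaps 3768 bp), ftn-2, encoding ferritin (3 regions, 58.3), the protease gene asp-1 (30.3), the yolk protein gene vit-6 (23.2) and the ion exchanger gene nhx-2 (22.8).

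MicroRNA genes were counted by distance. Of 261, 12 (4.6%) had a distal summit within 2000 bp on either side, and no share of other genes or of eligible bases was computed for that distance. A few lay close to strong regions upstream: mir-34, a regulator of stress responses and development, had D40 (58.4 pooled, 44.3 in replicate 2, 11.2 in replicate 1) 1920 bp upstream and 3 regions in all, mir-79 had D129 (45.0) 1470 bp upstream, and mir-80 had D146 (42.9 pooled, 33.02 in replicate 2, 7.15 in replicate 1) within 500 bp upstream. D472 (28.0 pooled, 19.6 in replicate 2, 9.65 in replicate 1) lay 97 bp upstream of mir-238, which shares its gap with mir-80 and had 3 regions in reach.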

How the data were processed

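Region lists from ChIP-seq of 2 biological replicates of 1 group were used, on ce11 and counted from 1. Per the labels and the deposited notes, the authors made a relaxed list for each replicate and from the pooled alignments, and an optimal list by irreproducible discovery rate. The deposited signal value of each region is the authors', with no stated scale, and the lists give the deposited −log10 q value. No source used here gives the aligner, peak caller or control, and ce10 lists were not used. Depth is unknown.

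Genes came from the Ensembl release for WBcel235, whose chromosome lengths match ce11. Positions, motifs and 36-base words were computed with Python 3.11.15, numpy 2.4.6, pandas 2.3.3 and scipy 1.17.1. Tests were exact McNemar, Fisher and binomial tests, two-sided, with Benjamini-Hochberg adjustment, called at 0.05, and were checked on simulated placements. Shares carry 95% Clopper-Pearson intervals. Alternatives changed the number of regions, position rule, window, flank, annotation, repeated sequence, regions per gap and replicate.

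Members and gene lists were chosen with earlier results of these data known. Named items were the 20 strongest regions with both neighbouring genes, gaps with 3 or more regions (44), regions next to pha-4, up to 4 genes per list and the 5 leading words in each direction; other regions and words were singled out after their values were seen. List members egr-1 and opt-2 were not matched to the annotation. Replicates were grouped by their labels, and p-values measure regions, not animals.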

Additional observations from a re-analysis of the deposited data

Results flagged for a closer look

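A pair of motifs differed between distal and promoter-window regions in how far the summit exceeded the flank, by Fisher's exact test on regions holding the motif in only 1 of their windows, adjusted over 10 motifs. For TGATAA the ratio of summit-only to flank-only regions was 2.49 at distal and 1.63 at promoter-window regions, an odds ratio of 1.53 (adjusted exact p = 0.0148). For the SKN-1 core the ratio was 1.39 at distal and 0.951 at promoter-window regions, an odds ratio of 1.46 (adjusted exact p = 0.0148). Regions inside genes had ratios of 2.15 for TGATAA and 1.41 for the SKN-1 core, and their difference from distal regions was not tested, so neither ratio is shown to be particular to distal regions.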

How the results depend on the processing

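No paired analysis was possible because the samples form 1 group. Of 501 single values under the alternatives, 378 kept their direction and their side of the threshold, 83 were no longer called, 6 became called and 34 changed direction. The sequence results differed most with replicate 1: over the lists of replicate 1 alone and replicate 2 alone, the motifs called ran from 1 to 8 against flanks and from 0 to 7 against promoter-window summits (2 with an unadjusted p under 0.05 at 0, Fisher's exact test), the words from 62 to 517 and from 18 to 147, and the gap types from 1 to 2. Their ratios to flanks ran from 0.842 to 2.06 for the forkhead consensus, 0.892 to 1.81 for its core, 0.932 to 2.40 for TGATAA, 0.977 to 1.11 for AGGTCA and 1.04 to 1.26 for E2F. Their odds ratios to promoter-window summits ran from 0.783 to 1.26, 0.976 to 1.10 and 0.890 to 1.41 for the first 3, 0.944 to 1.47 for the SKN-1 core and 0.844 to 1.57 for GATAAC. Position ratios ran from 0.996 to 1.06 for chromosome II, 0.994 to 1.11 for divergent gaps, 0.840 to 1.21 past gene ends (called at 1.21, in replicate 2) and 0 to 3.35 for snRNA genes.

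Flanks of matched G and C content, available for 292 regions, left 4 motifs and 20 words called. Against promoter-window summits, 3 motifs were called in the optimal list, 1 with the 2000 bp window and 4 with 50 bp around the summit. The optimal list, with 166 members, gave 0 chromosomes (1 with an unadjusted p under 0.05), 0 gap types and 0 distance classes (0 each, exact binomial tests), 1 non-coding class and a ratio of 1.04 for the middle of chromosomes; the strongest 2000 gave 2 non-coding classes, and the 2000 bp window 1 gap type. Directions also turned, among uncalled values except snoRNA genes, for AGGTCA against flanks (0.968 with the 2000 bp window, 0.893 with 50 bp, 0.690 with matched G and C, 0.962 with RefSeq), E2F (1.12 with 150 bp against flanks, 1.36 with 50 bp against low-ranked regions), chromosome I (0.976, 0.934 and 0.997) and II (0.984, 0.844 and 0.920) for the strongest 2000, the optimal list and the 2000 bp window, divergent gaps (0.988, 0.909 and 0.960) and past gene ends (1.05, 1.18 and 1.28, the last called) for the strongest 2000, the optimal list and 1 region per gap, and snoRNA genes in the optimal list (0). The cause was not tested. The RefSeq annotation, the removal of the pha-4 neighbourhood and of piRNA upstream bases were chosen after seeing the data. Depth is unknown and sets no stated limit.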

Other observations

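CCCTGC, counted with its reverse complement, was read off the leading sequences after they were seen, so it carries no test. It lay within 100 bp of the summit in 7 of the 20 strongest distal regions, D1, D2, D3, D4, D6, D8 and D10. Among the 20 strongest promoter-window regions it was in 1. Over the whole classes it was at 4.21% of 783 distal summits, 3.37% of 2194 promoter-window summits and 1.68% of 2267 low-ranked distal summits, and in 1.15% of distal flanks. Of the 1023 summits inside genes, 43 held CCCTGC, a share close to the distal one, so over whole classes the word was not particular to distal summits. In groups of 195 or 196 distal regions from strongest to weakest it was at 7.14%, 4.08%, 2.56% and 3.06%.

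CTGTCA, the leading word against promoter-window summits, was at 16.8%, 13.8%, 13.8% and 11.2% of the same groups, in 3 of the 20 strongest distal regions and in 0 of the 20 strongest promoter-window regions, and at 9.38% of summits inside genes. D641, beside the trehalose synthase gene tps-1, ranked 8 in replicate 1 (20.5) with 24.4 in the pooled list and 14.8 in replicate 2.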
